A study of Homo sapiens with 16 samples.

Results

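The neuron navigator family holds NAV1, NAV2 and NAV3, and these 3 of the 20163 protein-coding genes of the annotation were followed here along their whole length. The family was chosen with earlier results of these same libraries known, and NAV2 was selected on its island coverage in them. The values of NAV2 are therefore given as a description without a test, while NAV1 and NAV3 were tested. The study mapped 2 histone marks by CUT&Tag, an antibody-directed tagmentation assay, in BE2C, a MYCN-amplified human neuroblastoma cell line. In the first experiment BE2C cells received the siRNA siCtrl or siKDM6B33 for 72 h. In the second, cells were exposed for 72 h to GSK-J4, an inhibitor of the KDM6 demethylases, at 2.5 µM, or to its solvent DMSO at 0.1%. Each of the 8 groups, 4 conditions with antibodies to H3K27me3 or H3K4me1, had 2 libraries, 16 in all. The cells carried no other allele or agent per the labels, 1 siRNA to KDM6B was used, and the libraries of a group are described as biological replicates. KDM6B transcript was not measured by these lists, which therefore do not check the knockdown.

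Navigators are the vertebrate relatives of the nematode protein UNC-53, which guides cell and axon outgrowth. They ride on growing microtubule ends, bind end-binding proteins and connect microtubules with actin in neurites. NAV2 is known as a retinoic acid-responsive gene in neuroblastoma cells, and NAV3 is frequently altered in tumours of neuroectodermal and other origin. H3K27me3 is the mark laid down by the Polycomb complex PRC2 at silent developmental genes and removed by KDM6A and KDM6B. H3K4me1 marks enhancers and the flanks of promoters, and promoters rich in CG dinucleotides can carry H3K27me3 together with H3K4 methylation.

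Per GENCODE on hg19, all 3 genes lie on the plus strand. NAV1 (ENSG00000134369.16_12) occupies chr1:201508255-201796097, NAV2 (ENSG00000166833.23_15) chr11:19372271-20143147 and NAV3 (ENSG00000067798.16_13) chr12:77718421-78606790. Their models measure 288, 771 and 888 kb, longer than 95.6%, 99.3% and 99.5% of coding genes. Positions below are in kb from the first base of each gene model, and each gene was taken with 5 kb on either side. The canonical start of NAV1 is at 0 kb (NAV1-210), that of NAV2 at 362 kb (NAV2-201), and that of NAV3 at 506 kb (NAV3-201). An island is a broad domain called by SICER, and coverage is the percentage of the gene with its flanks that islands of 1 library cover. A narrow peak is a MACS2 call, from whose fold and p-value the number of tags at the summit was recovered, and 0 tags means that no narrow peak was called there.

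The DNA at 5 places of these genes is printed here on the plus strand, 300 bases each, because the results below turn on these places, with CG dinucleotides in capitals. The first windows end at the base before the canonical starts of NAV1 and NAV2.
NAV1 canonical start, chr1:201507955-201508254: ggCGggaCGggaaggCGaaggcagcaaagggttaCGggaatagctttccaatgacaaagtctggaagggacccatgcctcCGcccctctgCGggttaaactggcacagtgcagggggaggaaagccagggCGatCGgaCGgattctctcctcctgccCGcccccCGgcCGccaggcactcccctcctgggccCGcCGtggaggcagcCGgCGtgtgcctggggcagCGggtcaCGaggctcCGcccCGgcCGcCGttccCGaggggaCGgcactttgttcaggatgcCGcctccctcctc
NAV2 canonical start, chr11:19734083-19734382: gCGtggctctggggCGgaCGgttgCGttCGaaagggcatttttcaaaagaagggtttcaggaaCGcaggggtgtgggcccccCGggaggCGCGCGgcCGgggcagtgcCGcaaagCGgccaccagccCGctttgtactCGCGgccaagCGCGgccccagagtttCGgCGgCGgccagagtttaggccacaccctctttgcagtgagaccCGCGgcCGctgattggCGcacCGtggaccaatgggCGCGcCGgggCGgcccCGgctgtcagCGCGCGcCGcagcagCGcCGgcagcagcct
The next window ends just before the canonical start of NAV3, where the 16 libraries held no island and no narrow peak of either mark.
NAV3 canonical start, chr12:78224374-78224673: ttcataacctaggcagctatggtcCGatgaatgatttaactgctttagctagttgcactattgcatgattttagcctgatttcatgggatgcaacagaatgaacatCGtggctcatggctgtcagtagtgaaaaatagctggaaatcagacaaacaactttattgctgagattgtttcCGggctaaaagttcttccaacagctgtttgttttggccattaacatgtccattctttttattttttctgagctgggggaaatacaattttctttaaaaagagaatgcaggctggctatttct
The last are intronic H3K4me1 summits, the strongest peak of NAV1 and a peak in the first intron of the long NAV2 transcript.
NAV1 intronic peak, chr1:201672733-201673032: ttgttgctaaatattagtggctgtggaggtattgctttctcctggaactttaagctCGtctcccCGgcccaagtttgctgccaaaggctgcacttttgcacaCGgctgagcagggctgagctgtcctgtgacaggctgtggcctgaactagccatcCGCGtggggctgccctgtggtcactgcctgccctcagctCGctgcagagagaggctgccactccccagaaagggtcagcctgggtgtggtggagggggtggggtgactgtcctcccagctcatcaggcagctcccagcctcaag
NAV2 first intron peak, chr11:19463466-19463765: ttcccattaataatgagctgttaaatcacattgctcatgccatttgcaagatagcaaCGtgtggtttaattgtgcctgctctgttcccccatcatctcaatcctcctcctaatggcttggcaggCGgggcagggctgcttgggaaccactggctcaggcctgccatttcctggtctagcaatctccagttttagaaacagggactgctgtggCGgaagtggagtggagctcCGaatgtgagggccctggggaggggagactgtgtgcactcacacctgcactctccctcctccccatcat

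The windows before the canonical starts of NAV1 and NAV2 held 25 and 37 CG dinucleotides, against a median of 19 over windows of the same kind at 55705 coding transcript starts. The window before the canonical start of NAV3 held 3, and 11.2% of coding starts had fewer. None of the 5 windows held an annotated exon of the member. The intronic windows held 6 CG in NAV1 and 4 in NAV2, where the median around H3K4me1 narrow summits of siCtrl replicate 1 was 4. The E-box CACGTG, the letters best known for MYC and MYCN binding, was in none of the 5 windows and in 8.3% of coding-start windows. The E-box CAGCTG was found once, in the NAV3 window, and in 15.7% of coding-start windows. Both motifs read the same on either strand, and a match is no evidence of binding.

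Across the series the libraries differed in depth. Tags per position in the genome background, as recovered from the narrow peaks, ranged from 0.0298 to 0.0539 for H3K27me3 and from 0.0483 to 0.107 for H3K4me1, and were higher after knockdown than in siCtrl for both marks. GSK-J4 replicate 1 stood apart among the H3K27me3 libraries of its experiment, with 16675 islands of median width 3000 bp against 7174 to 8005 islands of 6600 to 7400 bp in the other 3. In the compound experiment 56.5% to 72.0% of the H3K27me3 island length lay inside H3K4me1 islands of the same condition, against 9.96% to 12.8% in the knockdown experiment. Of 9 adrenergic markers such as HAND2 and DBH, all 9 had H3K4me1 islands in every library. For H3K27me3, 2 of the 9 had an island in any library of the knockdown experiment. In the compound experiment all 9 did in at least 1 library and 5 in all 4. Of the 20163 coding genes, 5677 had an H3K27me3 island in any library of the knockdown experiment and 7767 in the compound experiment. The KDM6B gene itself had no H3K27me3 island in the knockdown experiment, and 33.4% to 77.2% of it was covered in the compound experiment. MYCN was covered to 95.6% by both marks in all 16 libraries. The gene is amplified in this line, and the part of copy number in its coverage was not tested. The blood markers PTPRC and CD3E had no island of either mark in any library. Of the epithelial markers, KRT18 had no island and EPCAM had H3K4me1 islands in 3 libraries of the knockdown experiment only, over 2.29% of the gene in siCtrl replicate 2 and 10.3% and 9.92% after knockdown. Of 4 mesenchymal markers, all had H3K27me3 islands and 3 had H3K4me1 islands in each experiment. For H3K4me1 2 were higher and 0 lower after knockdown, beside 66.5% and 13.8% of coding genes. VIM had 23.8% and 25.8% and PRRX1 6.92% and 8.31%, against no island in siCtrl. In GSK-J4 0 were higher and 1 lower, beside 22.8% and 17.7%. This was COL1A1, with 0.505% and 10.2% against 21.8% and 16%. Fewer cells carrying a mark and less of it per cell cannot be told apart in such bulk libraries.

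NAV2 was the member with less of both marks after knockdown. H3K27me3 islands covered 2.12% and 2.42% of NAV2 in siCtrl and 1.02% and 1.04% in siKDM6B33, means of 2.27% ± 0.217 and 1.03% ± 0.0181 (SD, n = 2 each). The groups did not overlap, and 11.5% of the 5677 coding genes with an H3K27me3 island had both knockdown libraries below both controls. H3K4me1 islands covered 4.92% and 4.02% in siCtrl and 1.91% in each knockdown library, a difference of means of -2.56 percentage points. Here too the groups were apart, as they were in this direction at 13.8% of 14031 coding genes with an H3K4me1 island. Over all coding genes with an island the median difference was 1.01 points for H3K27me3 and 4.44 points for H3K4me1, towards more coverage after knockdown. For H3K27me3 this background turned with scaling. With the lists cut to equal covered length by score, 16.4% of coding genes were higher and 35.0% lower after knockdown, in place of 35.4% and 11.5%.

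**Figure D1:**
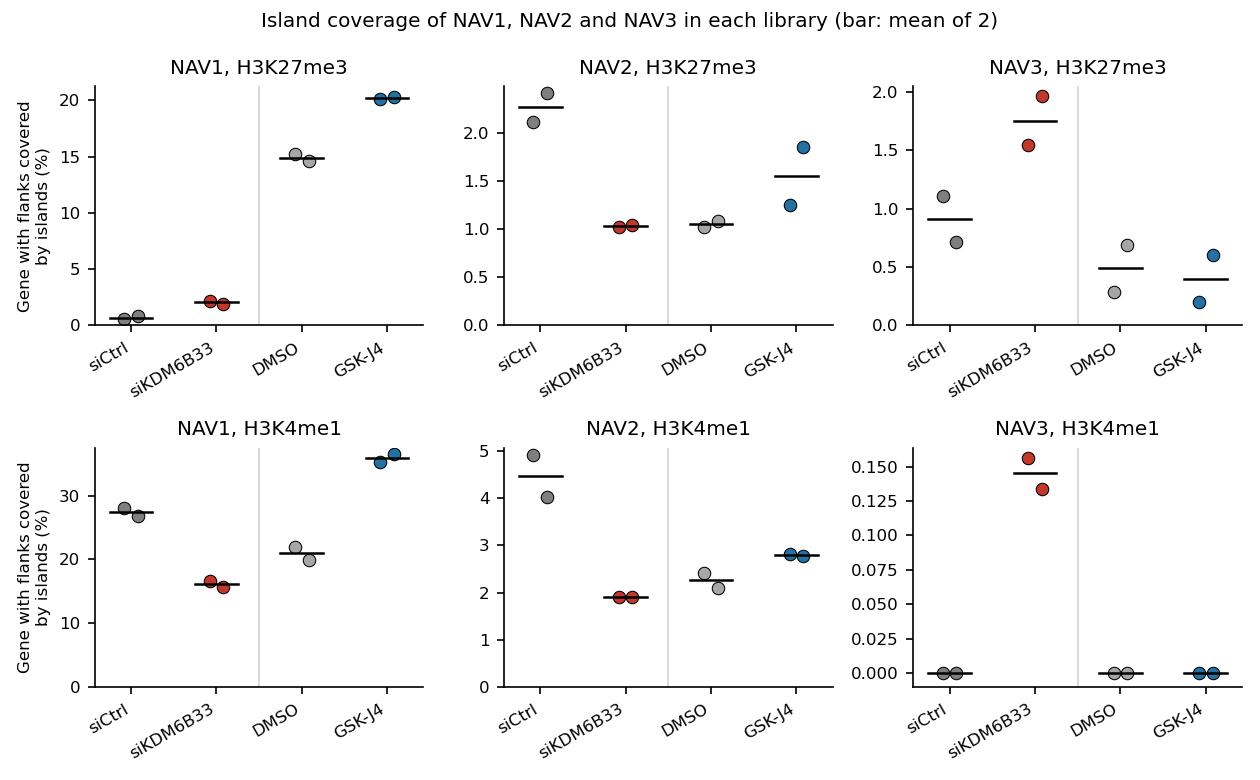
Percentage of each gene with 5 kb flanks that islands covered (vertical axes, which differ between panels) in each of the 16 libraries, by condition (horizontal axis). Points are libraries and bars the mean of 2. For both marks the NAV2 points were lower after knockdown, 1.02% to 1.04% against 2.12% to 2.42% for H3K27me3, and NAV3 had H3K4me1 islands only in the 2 knockdown libraries.

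The 8 libraries gave 8 separate H3K27me3 regions along NAV2 once islands that touched were merged. Of these, 2 were called in all 8 libraries, the one directly upstream of the gene model and the one over the canonical start. A region was counted as lost when both control libraries called it and neither treated library did, and as gained in the opposite case. After knockdown 2 of the 7 H3K27me3 regions of NAV2 were lost and 0 gained, where genome-wide 1.70% of merged regions were lost and 20.5% gained. With equal covered length, where regions were merged again from the 4 libraries of this experiment, 3 were lost and 0 gained. The total of NAV2 regions was not counted there, and genome-wide 21.6% of 10653 were lost and 1.8% gained.

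Both lost H3K27me3 regions lay in intron 1 of the canonical transcript, downstream of its start. The first, chr11:19811401-19814400 at 439 to 442 kb, was covered over 3000 and 2000 bp in siCtrl. The second, chr11:19818201-19822400 at 446 to 450 kb, was covered over 3800 and 1800 bp. A neighbour at 425 to 429 kb was narrower rather than lost, with 3600 and 2800 bp against 1600 and 2000 bp. The lost regions carried 24.5% and 27.5% of the covered length that NAV2 had less of after knockdown, and the neighbour 13.7%. A further 10.8%, 12.7% and 10.8% came from regions at 78.5 and 89.5 kb, each called in siCtrl replicate 2 alone in that experiment, and from the upstream flank.

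These islands were weak calls. In siCtrl replicates 1 and 2 the region at 439 kb scored 56.8 and 54.9, above 17.3% and 14.4% of the islands of those libraries, and the region at 446 kb scored 65.3 and 65.2, above 26.4% and 25.5%. No narrow peak lay in either region in the siCtrl libraries, and the one narrow call of this experiment in them, of 5 tags at 448 kb, was in siKDM6B33 replicate 1. By contrast the region over the canonical start scored 214 and 170 in siCtrl and 160 and 181 after knockdown, above 62.3% to 68.8% of islands. With equal covered length the NAV2 difference was -1.7 points, whereas the share of NAV2 covered by narrow peaks differed by 0.0122 points in the opposite direction. Narrow H3K27me3 peaks numbered 6 and 10 in siCtrl and 12 and 11 after knockdown. Both knockdown libraries had more narrow peaks than both controls, as they did at 14.1% of coding genes, and 5.45% had fewer. The difference of 3.5 peaks fell to 0.5 at a −log10 q of at least 2 and also at 5, and was 1.5 without siCtrl replicate 1 and 5.5 without siCtrl replicate 2.

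The canonical start of NAV2 stood apart from the rest of the gene because it kept both marks in every library. The merged regions there, at 360 to 365 kb, covered 3000 to 4800 bp for H3K27me3 and 2000 to 5200 bp for H3K4me1. The strongest H3K27me3 peak held 18 and 12 tags in siCtrl, 12 and 18 after knockdown, 14 and 13 in DMSO and 16 and 14 in GSK-J4. Tags overlapped between conditions in each experiment. In times the genome background the knockdown groups overlapped too, whereas DMSO had 470 and 385 and GSK-J4 316 and 377, lower in both treated libraries. This position, chr11:19734344-19734504, gave the strongest H3K27me3 peak of NAV2 in all 8 libraries. The strongest H3K4me1 summit within 1 kb of the start held 27 and 15 tags in siCtrl against 42 and 43 after knockdown. In times the genome background of each library these were 299 and 177 against 393 and 410. It held 11, 13, 12 and 10 tags in DMSO replicates 1 and 2 and GSK-J4 replicates 1 and 2. In DMSO replicate 1 and GSK-J4 replicate 1 this peak lay beside the position above, at chr11:19733956-19734020 and chr11:19733980-19734066. At the start the H3K4me1 summit was thus higher in both knockdown libraries, also relative to background, while coverage of the whole gene was lower. The median over all narrow H3K4me1 peaks was also higher, with 9 and 9 tags after knockdown against 7 and 6 in siCtrl. Summits at the NAV1 start and the 5′ edge of NAV3, given below, moved the same way. How many other starts did so was not counted.

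Along NAV2 the H3K4me1 islands merged into 12 regions, 10 of them wholly intronic. After knockdown 4 of 11 were lost, where 13.1% of H3K4me1 regions genome-wide were lost, and 1 was gained, where 24.8% were. The lost regions lay at 89.7, 207, 352 and 760 kb, the first 3 in the first intron of the longest NAV2 transcript, upstream of the canonical start, and the last in intron 36. They covered 2400 and 2400 bp, 3200 and 2200 bp, 3400 and 3000 bp, and 2400 and 2600 bp in the siCtrl libraries. Each carried between 11.3% and 15.1% of the lower covered length.

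The region that carried most, 28.3%, was not counted as lost because 1 knockdown library still called it. This region, chr11:19972801-19981400 in intron 10 at 601 to 609 kb, covered 7000 and 7200 bp in siCtrl, 0 and 2200 bp in siKDM6B33, 8200 and 5400 bp in DMSO and 5600 and 8200 bp in GSK-J4. Its siCtrl islands scored above 72.9% and 73.9% of the islands of their library, and the remaining knockdown island above 0.59%. Near 91 kb the strongest H3K4me1 summit, in the first-intron window printed above, held 12 and 14 tags in siCtrl and 3 and 4 after knockdown, 133 and 165 against 28.0 and 38.1 times background. Narrow peaks were therefore still called at 91 kb after knockdown while the island was not. NAV2 had 46 and 47 narrow H3K4me1 peaks in siCtrl and 32 and 25 after knockdown, a direction seen at 13.6% of coding genes, against 44.6% in the opposite one. With equal covered length the H3K4me1 difference was -3.45 points, where 18.3% of coding genes were lower and 60.2% higher. Under that scaling regions were merged again from the 4 libraries of this experiment, and 7 regions of NAV2 were lost and 1 was gained. The total of NAV2 regions was not counted there, and genome-wide 22.1% of 26789 were lost and 19.1% gained.

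**Figure D2:**
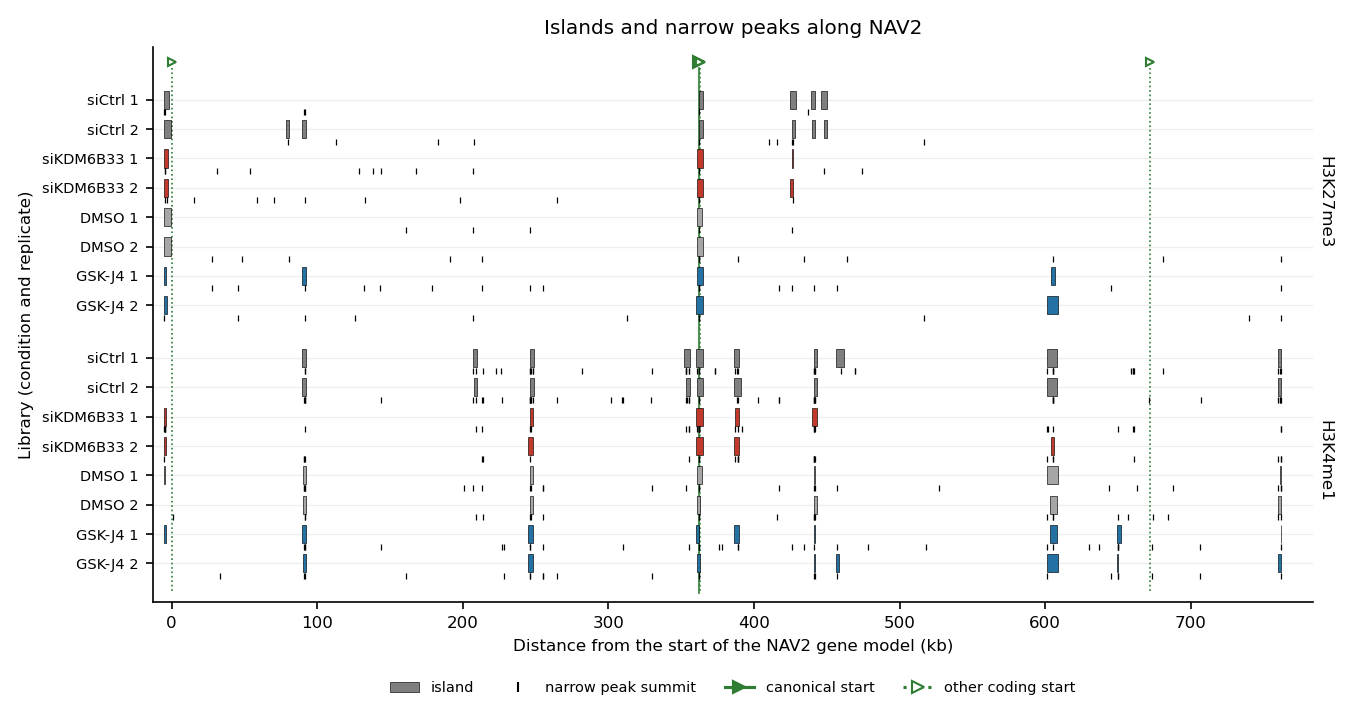
Islands (boxes) and narrow peak summits (ticks under each row) along NAV2 in the 16 libraries, with distance from the start of the gene model in kb on the horizontal axis. The canonical start at 362 kb carries boxes of both marks in every row, and the H3K27me3 boxes at 439 and 446 kb are present only in the siCtrl rows.

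In GSK-J4 NAV2 had slightly more of both marks. H3K27me3 covered 1.02% and 1.09% in DMSO and 1.25% and 1.86% in GSK-J4, a difference of 0.499 points, as groups were apart in this direction at 14.3% of 7767 coding genes and in the other at 10.5%. H3K4me1 covered 2.42% and 2.1% in DMSO and 2.81% and 2.77% in GSK-J4, a difference of 0.525 points, with 22.8% of 9074 coding genes apart in this direction and 17.7% in the other. With equal covered length the differences were -0.0128 and -0.0896 points, opposite in sign, and no region was gained. The background moved too, since 8.46% of coding genes were then higher and 14.8% lower in H3K27me3, and 20.1% higher and 21.2% lower in H3K4me1.

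A single H3K27me3 region carried most of the higher coverage, at the place where H3K4me1 coverage differed most after knockdown. The region chr11:19973001-19981000, at 601 to 609 kb in intron 10, was called over 2800 and 8000 bp in GSK-J4 and in no other H3K27me3 library, and made up 76.1% of the covered length that was higher. It was 1 gained of 4 regions and none was lost, where 5.86% of regions genome-wide were gained and 0.218% lost. It lay at the H3K4me1 region of the compound experiment described above, and the only narrow H3K27me3 peak called in it, of 5 tags at 605 kb, was in DMSO replicate 2 and in neither GSK-J4 library. Its islands scored above 37.4% and 23.8% of their library. In GSK-J4 libraries 81.5% and 82.1% of the H3K27me3 length in NAV2 lay inside H3K4me1 islands, against 47.0% and 43.7% in DMSO, and the part of this overlap in the result was not tested. Without GSK-J4 replicate 1, the library that stood apart, the H3K27me3 difference was 0.807 points, and without GSK-J4 replicate 2 it was 0.192.

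The flank upstream of NAV2 moved the other way. The H3K27me3 region there covered 4530 and 4730 bp of the flank in DMSO and 1130 and 1730 bp in GSK-J4, so that the gene body alone differed by 0.921 points, more than the gene with flanks. Narrow peaks numbered 5 and 13 in DMSO against 17 and 11 in GSK-J4 for H3K27me3, and 26 and 23 against 33 and 23 for H3K4me1, and both pairs overlapped. Genome-wide 19.9% and 13.4% of coding genes had more narrow peaks of the respective mark in both GSK-J4 libraries, and 2.98% and 8.25% fewer. For H3K4me1 1 of 10 regions was gained, at 649 to 652 kb in intron 11 with 2600 and 1000 bp, and 0 lost, beside 7.88% and 4.98% genome-wide.

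**Figure D3:**
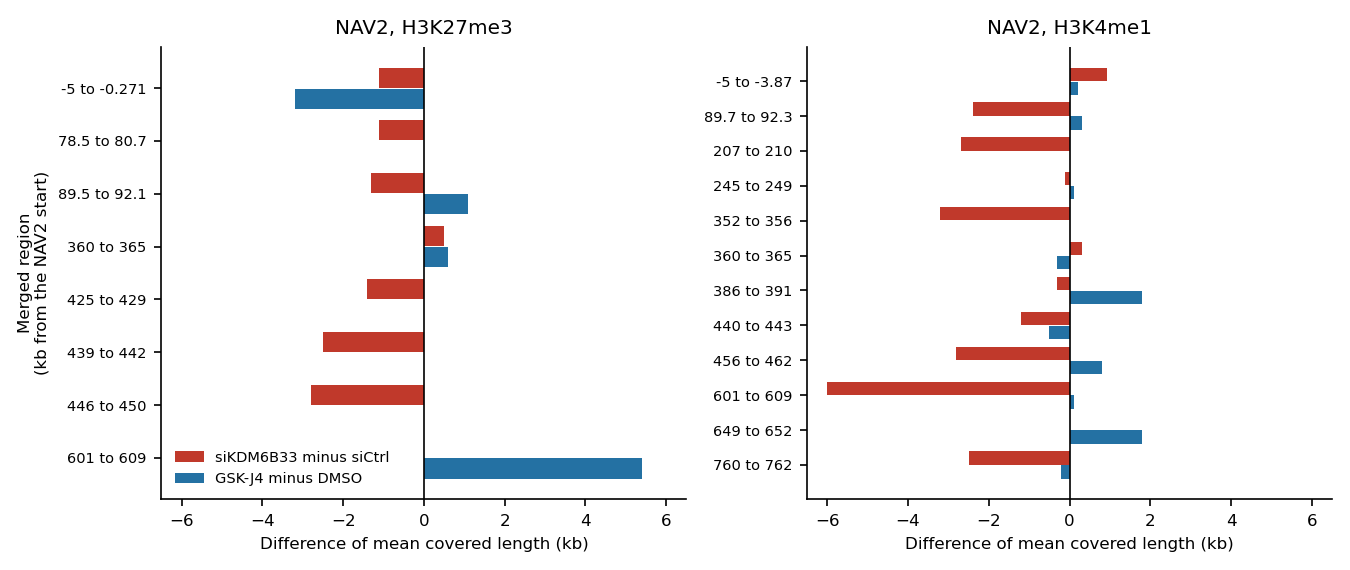
Difference of mean covered length in kb (horizontal axis, treated minus control) for each merged region of NAV2, ordered by distance from the gene start in kb (vertical axis), after knockdown (red) and in GSK-J4 (blue). Less H3K27me3 after knockdown was spread over 6 regions, most at 439 and 446 kb, while most of the higher H3K27me3 coverage in GSK-J4 lay at 601 kb.

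The stretch between NAV2 and E2F8, the neighbouring coding gene followed here for this interval, is 109 kb long and held 1 H3K27me3 island in each of the 8 libraries. That island lay next to NAV2 and covered 5.2, 6.6, 5.8 and 4.6 kb in siCtrl replicates 1 and 2 and siKDM6B33 replicates 1 and 2. It covered 6.6 and 8.8 kb in DMSO and 3.2 and 6 kb in GSK-J4, a lower value in both GSK-J4 libraries. H3K4me1 was called at the same place in both knockdown libraries, over 1.8 and 2 kb, in DMSO replicate 1 and GSK-J4 replicate 1 over 2.6 and 3.2 kb, and in no siCtrl library. E2F8, a cell cycle repressor of the E2F family, had no island of either mark within 5 kb in any library.

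NAV1 was the member with the highest H3K4me1 coverage. H3K4me1 islands covered 28.1% and 26.8% of it in siCtrl and 16.6% and 15.7% after knockdown, a difference of -11.3 points from 27.5% ± 0.950 to 16.1% ± 0.617. In GSK-J4 the direction was the opposite, 35.3% and 36.5% against 22.0% and 19.9% in DMSO, a difference of 15 points. The libraries did not overlap in either experiment, and of all coding genes with an island 13.8% were lower after knockdown and 22.8% higher in GSK-J4 in the same way. An exact two-sided permutation test gave p = 0.333 for each, the smallest possible with 2 against 2 libraries, and 0.444 after Benjamini-Hochberg adjustment over the 8 tests of NAV1 and NAV3. The difference between the effects in the 2 experiments, -26.3 points, gave p = 0.0556 in an exact permutation within each experiment, the smallest possible, and 0.222 adjusted over 4 tests. The effects were -11.2 and 13.9 points with equal covered length. With narrow peaks in place of islands they were -0.591 and 0.0322 points, and the GSK-J4 and DMSO libraries then overlapped. Among the 3666 coding genes of at least 100 kb, NAV1 exceeded 95.9% in H3K4me1 coverage in siCtrl, 92.4% after knockdown, 96.7% in DMSO and 98.4% in GSK-J4.

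The 22 H3K4me1 regions of NAV1, 16 of them wholly intronic, were up to 17400 bp wide, and 7 were called in all 8 libraries. After knockdown 3 of 17 were lost, at 62.9, 69.1 and 132 kb, and 1 was gained, in the downstream flank at 289 to 293 kb, which overlaps IPO9, a gene that begins at 290 kb. Genome-wide 13.1% of H3K4me1 regions were lost and 24.8% gained. Much of the lower coverage came from regions that were shortened or dropped by 1 library. The stretch at 12.5 to 25.1 kb in intron 1 covered 11800 bp in each siCtrl library and 0 and 2800 bp after knockdown, 25.7% of the lower covered length. The stretch at 163 to 171 kb in intron 5 covered 7600 and 7800 bp against 2000 and 2200 bp.

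At 165 kb within this stretch lay the strongest H3K4me1 peak of NAV1 in all 8 libraries. Its summit held 85 and 72 tags in siCtrl, 59 and 41 after knockdown, 42 and 42 in DMSO and 41 and 39 in GSK-J4. In times the genome background these were 942 and 848, 551 and 390, 738 and 870, and 750 and 698, so both knockdown libraries were the lowest on either scale within their experiment. The canonical start behaved otherwise, with 11 and 13 tags after knockdown against 4 and 5 in siCtrl. The median over all narrow H3K4me1 peaks moved in this direction too, with 9 and 9 tags against 7 and 6. Narrow H3K4me1 peaks of NAV1 overlapped between groups in both experiments, 79 and 73 against 74 and 63 after knockdown and 49 and 41 against 52 and 46 in GSK-J4 (exact permutation p = 0.667 each). Among peaks with a −log10 q of at least 5 the knockdown difference turned to 2.5 more. In GSK-J4 8 of 19 regions were gained and 0 lost, between 69.1 and 254 kb, where genome-wide 7.88% were gained and 4.98% lost. Those at 69.1, 77.5, 132, 172 and 218 kb held no narrow peak in either GSK-J4 library. The islands of the gained regions scored above 11.3% (218 kb) to 71.5% (86.5 kb) of the islands of their library.

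H3K27me3 at NAV1 differed more between the experiments than within them. It covered 0.537% and 0.873% in siCtrl and 2.22% and 1.88% after knockdown, against 15.2% and 14.6% in DMSO and 20.1% and 20.3% in GSK-J4. Treated libraries were above controls in both experiments, by 1.34 and 5.27 points (exact permutation p = 0.333 and 0.444 adjusted for each), and 35.4% of coding genes had more H3K27me3 coverage in both knockdown libraries and 14.3% in both GSK-J4 libraries. With equal covered length the differences were 0.604 and 1.88 points, and with equal numbers of islands the second was 0.705 points with the groups overlapping.

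After knockdown the higher NAV1 coverage came from 2 places. The start region chr1:201507001-201509600, at -1.25 to 1.34 kb, was gained with 2600 and 1800 bp, and its islands scored above 23.8% and 28.5% of their library. It was 1 of 2 regions in that experiment, where 20.5% of regions genome-wide were gained. A region around an internal transcript start at 109 kb, spanning 107 to 119 kb over exon 5, was called in all 16 libraries of both marks and covered 1600 and 2600 bp in siCtrl against 4000 and 3800 bp after knockdown. Its summit held 4 and 4 tags in siCtrl and 7 and 7 after knockdown, or 101 and 99.8 against 130 and 132 times background. Narrow H3K27me3 peaks numbered 4 and 1 against 4 and 5 and overlapped.

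The DMSO and GSK-J4 H3K27me3 islands of NAV1 lay where its H3K4me1 islands lay. Of their length 91.6% and 93.6% was inside H3K4me1 islands in DMSO and 99.0% and 94.7% in GSK-J4, against 100% of a far shorter length in the knockdown experiment. The strongest H3K27me3 peak in all 4 libraries was at 165 kb, the position of the strongest H3K4me1 peak, with 14 and 12 tags in DMSO and 29 and 19 in GSK-J4, whereas siCtrl and knockdown libraries had 2, 0, 0 and 0 tags there. The window printed for this summit held 6 CG. Narrow peaks numbered 12 and 17 in DMSO and 38 and 18 in GSK-J4 (exact permutation p = 0.333), of which the 38 were in replicate 1, the library that stood apart. Without that library the difference fell from 13.5 to 3.5 peaks, and 19.9% of coding genes had more narrow peaks in both GSK-J4 libraries. Of 15 regions in this experiment 1 was gained, at 62.1 to 67.5 kb, beside 5.86% genome-wide, and 8 were called in some libraries of a group but not all. The overlap of the marks moved with this result, and its part was not tested. From 149 kb onwards NAV1 also overlaps IPO9-AS1 on the opposite strand, and the assay cannot assign an island to one strand.

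**Figure D4:**
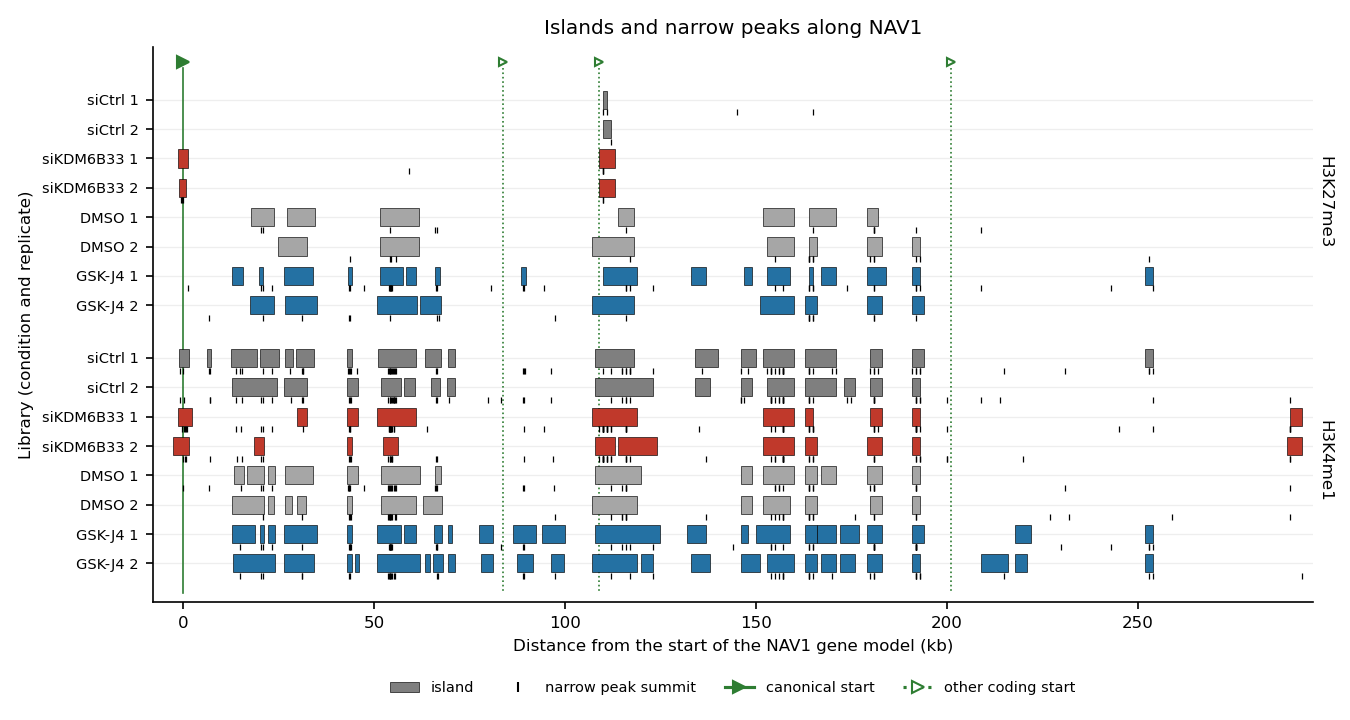
Islands (boxes) and narrow peak summits (ticks under each row) along NAV1 in the 16 libraries, with distance from the start of the gene model in kb on the horizontal axis. H3K27me3 boxes are limited to 110 to 112 kb in the siCtrl rows and to 0 and 109 to 113 kb in the siKDM6B33 rows, and follow the H3K4me1 boxes in the DMSO and GSK-J4 rows.

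NAV3, the longest member, was covered to at most 1.96% by either mark in any library. Among the 3666 coding genes of at least 100 kb its H3K27me3 coverage still exceeded 72.1% in siCtrl and 76% after knockdown. It exceeded 65% in DMSO and 52.1% in GSK-J4. For H3K4me1 it exceeded 19.7% after knockdown and 0% in the other conditions. H3K27me3 islands covered 1.11% and 0.712% in siCtrl and 1.54% and 1.96% after knockdown, and the groups did not overlap (difference 0.834 points, exact permutation p = 0.333, adjusted p = 0.444), as in this direction at 35.4% of coding genes. In DMSO they covered 0.289% and 0.690% and in GSK-J4 0.2% and 0.601%, which overlapped (exact permutation p = 0.667). The knockdown difference turned to -0.401 points with equal covered length and -0.0891 with equal numbers of islands, so its direction depended on how much was called in each library.

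Only the 5′ edge of the NAV3 model held H3K27me3 in all 8 libraries, from -5 to 4.58 kb, over 1800 to 7980 bp. The summit, just inside the first exon of a transcript outside the basic annotation set that begins at 0 kb, held 19 and 17 tags in siCtrl, 24 and 18 after knockdown, 15 and 11 in DMSO and 10 and 8 in GSK-J4. The GSK-J4 values were the lowest of the 8, at 197 and 216 times background against 503 and 325 in DMSO. The annotated canonical start at 506 kb and the start at 507 kb had no island and no narrow summit within 1 kb in any of the 16 libraries. The third start, NAV3-216 at 712 kb, lay in an H3K27me3 region called in siCtrl replicate 1 and both knockdown libraries.

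The remaining NAV3 regions were distal and belonged to the knockdown experiment. By the call rule none of the 6 was gained or lost, 0 in each direction, because 5 were called in only some libraries of a group. The clearest lay in intron 12 at 776 to 780 kb, covered over 2600 and 0 bp in siCtrl and 3200 and 2400 bp after knockdown. Its summit at 778 kb held 0 and 5 tags in siCtrl and 19 and 17 after knockdown, 0 and 125 against 353 and 321 times background, and 2 to 3 tags in the compound libraries. By p-value it was the strongest H3K27me3 peak of NAV3 in both knockdown libraries and in no other. No H3K4me1 peak was called there in any library. Narrow H3K27me3 peaks of NAV3 numbered 17 and 18 in siCtrl against 27 and 32 after knockdown. They numbered 9 and 10 in DMSO against 18 and 12 in GSK-J4 (exact permutation p = 0.333, adjusted p = 0.762 for each comparison). Both were higher as at 14.1% and 19.9% of coding genes. The GSK-J4 difference of 5.5 peaks turned to -1 at a −log10 q of at least 5 and fell to 2.5 without GSK-J4 replicate 1.

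H3K4me1 islands were called at NAV3 in the knockdown libraries alone. The single region, over the 5′ edge, chr12:77718201-77719600, was covered over 1400 and 1200 bp in siKDM6B33, 0.156% and 0.134% of the gene, and not in the other 6 libraries (exact permutation p = 0.333). In this direction 66.5% of coding genes were apart. The islands scored above 10.5% and 9.71% of those in their library, and none was left with equal covered length, equal numbers of islands or a minimum width of 2 kb. Narrow summits at this edge held 8 and 11 tags after knockdown, 2 and 0 in siCtrl, 4 and 3 in DMSO and 0 and 4 in GSK-J4. Over the whole gene narrow H3K4me1 peaks numbered 0 to 8 per library and overlapped between groups in both experiments.

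**Figure D5:**
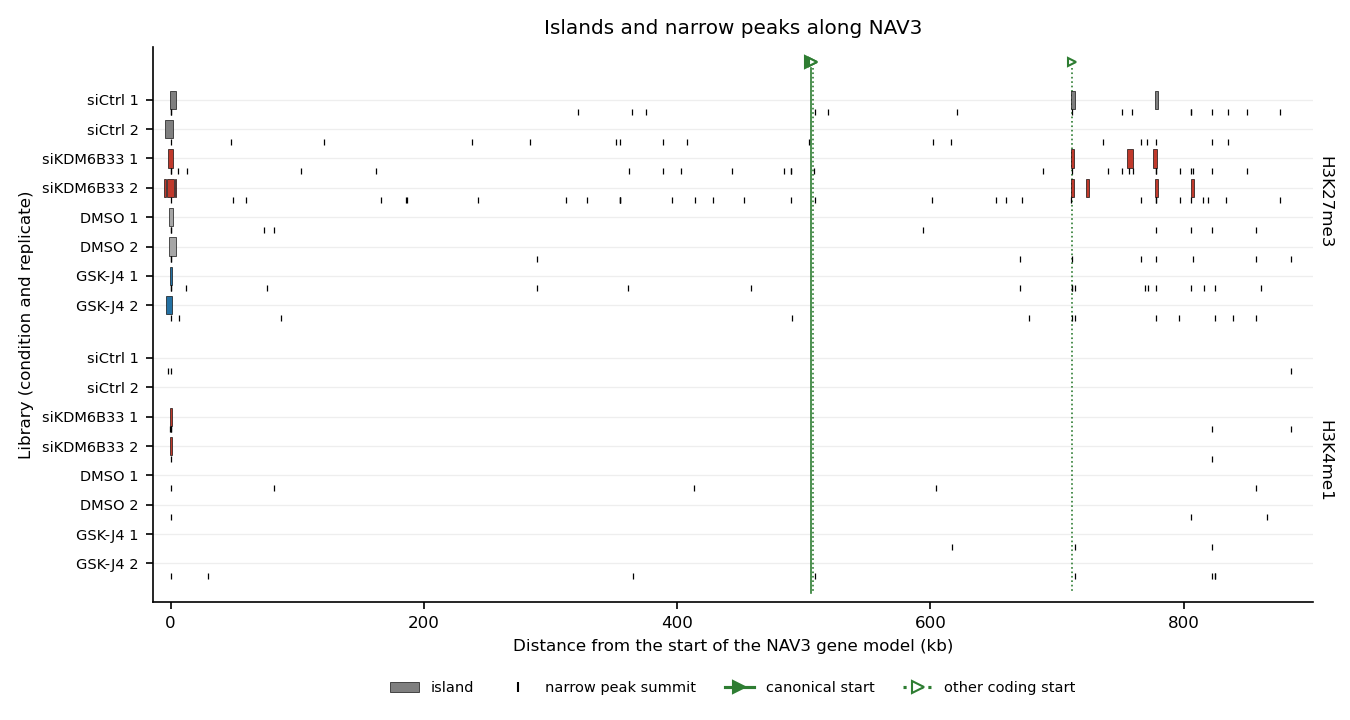
Islands (boxes) and narrow peak summits (ticks under each row) along NAV3 in the 16 libraries, with distance from the start of the gene model in kb on the horizontal axis. H3K27me3 boxes sit at 0 kb in all 8 rows and from 711 kb on in siCtrl replicate 1 and both siKDM6B33 rows, and no box lies at the canonical start at 506 kb.

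The 99, 85 and 143 narrow H3K27me3 calls of NAV1, NAV2 and NAV3 merged into 62, 65 and 106 positions, of which 40, 54 and 87 were found in a single library. The position at the NAV2 canonical start and that at the NAV3 5′ edge were the only H3K27me3 positions found in all 8 libraries. For H3K4me1 the calls were more often shared in NAV1, with 13 of 153 positions in all 8 libraries, than in NAV2, with 5 of 132, and no NAV3 position of 19 was. The NAV2 positions lay at the canonical start and at 91.3, 441 and 762 kb, so that 2 of the regions lost as islands kept a narrow call in every library. The difference in sharing was not tested.

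The other genes of the microtubule plus-end machinery were read from a list chosen with earlier results known. Of 20 genes for microtubule plus-end proteins and navigator partners, such as the end-binding proteins MAPRE1 to MAPRE3 and the CLASP rescue factors, 3 had an H3K27me3 island in the knockdown experiment, 0 with higher and 2 with lower coverage after knockdown, beside 35.4% and 11.5% of all coding genes with an island. They were SLAIN1, with 5.75% and 6.53% against 4.18% and 3.92%, and DST, a spectraplakin linking microtubules and actin, with 0.789% and 0.671% against 0.474% and 0.631%. The median difference over the 3 genes was -0.178 points, beside 1.01 over all coding genes with an island. For H3K4me1 17 had an island, 10 with higher and 2 with lower coverage, beside 66.5% and 13.8% of all coding genes with an island. Among them DCTN1, the large dynactin subunit, had 11.2% and 10.3% against 30.8% and 30.3%, whereas TRIO, a guanine nucleotide exchange factor that partners NAV1, had 34.5% and 35.2% against 27.7% and 28.2%. The list median was a difference of 2.85 points beside 4.44 over all coding genes with an island. In GSK-J4, 0 of 8 genes with an H3K27me3 island were apart, where 14.3% of coding genes were higher and 10.5% lower. For H3K4me1 2 were higher and 1 lower of 15, beside 22.8% and 17.7% of coding genes, MAPRE3 with 12.9% and 15.6% against 6.61% and 6.01% having the largest difference.

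By the root mean square difference in coverage over the 16 libraries, the long gene most like NAV1 was KCNN3 at 1.96 points, a calcium-activated potassium channel gene with 28.0%, 16.7%, 24.1% and 36.0% H3K4me1 coverage in siCtrl, siKDM6B33, DMSO and GSK-J4, followed by KLHL29 and EXD3. PAK5, a neuronal kinase gene, was nearest to NAV2 at 0.838 points, with ALDH1A2 and SAMD4A next. KIAA1217 was nearest to NAV3 at 0.239 points, followed by GRM5 and NKAIN3. The order of the members in H3K4me1 coverage was NAV1, NAV2 and NAV3 in every library, without overlap. For H3K27me3 NAV1 was highest in the compound experiment, NAV2 in siCtrl, where NAV1 and NAV3 overlapped, and NAV1 and NAV3 overlapped above NAV2 after knockdown.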

How the data were processed

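Islands and narrow peaks of 16 CUT&Tag libraries were read as the authors deposited them. Per the submitters' processing notes and methods, reads were trimmed (Trim Galore 0.4.4), aligned to hg19 (BWA 0.7.12), deduplicated (Picard 1.65) and filtered to fragments of 150 to 2000 bp (SAMtools 1.3.1). The authors called islands with SICER 1.1 (window 200 bp, gap 600 bp), each with a score, and narrow peaks with MACS2 (for which the notes and the methods give different versions), per library and not pooled. The narrow peak files deposited by the authors hold the fold of the summit over local background and the −log10 of p and q. Neither list is scaled between libraries, by spike-in or depth, and read totals were not given in the sources used here. Depth was therefore described by the genome background of tags, recovered with the summit tags from fold and −log10 p (relative tolerance 0.001).

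NAV1, NAV2 and NAV3, the gene lists and the summary places were chosen with earlier results of these data known. The genes named beyond the members were KDM6B, the neighbour E2F8, genes that overlap a member or its flank, cell type markers including MYCN, genes of the microtubule list whose groups did not overlap, with the largest differences, and the 3 long genes nearest to each member. MAPRE1 to MAPRE3 are also named as examples of that list. Coverage, narrow peak number and merged regions were computed over GENCODE genes with 5 kb flanks (Python 3.11.15, NumPy 2.4.6, pandas 2.3.3). NAV1 and NAV3 were compared with a two-sided exact permutation test over libraries (SciPy 1.17.1; smallest p 0.333) and Benjamini-Hochberg adjustment. NAV2 was not tested. Scripts were tested on simulated data. Alternatives were the gene body alone, islands of at least 2 kb, equal covered length or number of islands, joined islands, narrow peaks in place of islands, stricter q, a replicate block, and each library left out.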

Additional observations from a re-analysis of the deposited data

Results flagged for a closer look

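In 3 instances all libraries of 1 experiment lay on the opposite side of their controls from all libraries of the other. NAV1 H3K4me1 coverage differed by -11.3 percentage points after knockdown and by 15 points in GSK-J4. The difference between these effects was -26.3 points (exact permutation within experiments, p = 0.0556, the smallest of 36 arrangements, and 0.222 adjusted over 4 tests). Any instance flagged by this rule takes that smallest p, so the p gives it no further support. NAV2 H3K27me3 coverage differed by -1.24 points after knockdown and 0.499 in GSK-J4, and NAV2 H3K4me1 coverage by -2.56 and 0.525 points. With equal covered length both GSK-J4 differences of NAV2 turned negative, -0.0128 and -0.0896 points, and the experiments then no longer ran opposite ways. For NAV2 the difference between experiments was not tested, because the gene was selected on these values.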

How the results depend on the processing

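Of 120 alternative differences in island coverage, 77 kept their sign and lay within a factor of 1.5 of the difference reported, 22 kept their sign but lay outside it, 8 changed sign and 3 fell to 0. The other 10 were of NAV3 H3K4me1 in GSK-J4, which had no island. For narrow peak numbers 38 of 84 lay within the factor, 38 kept their sign outside it, 5 changed sign and 3 fell to 0. The cause of these shifts was not tested. With equal covered length, NAV2 differed after knockdown by -1.7 (H3K27me3) and -3.45 points (H3K4me1), in GSK-J4 by -0.0128 and -0.0896, and NAV3 H3K27me3 after knockdown by -0.401. With equal numbers of islands these values were -1.47, -3.08, 0.179, 0.0173 and -0.0891. NAV1 H3K27me3 differed by 1.88 in GSK-J4 with equal covered length and 0.705 with equal numbers, against 5.27, and by 0.604 after knockdown with either. NAV3 H3K4me1 after knockdown fell to 0 with both and with islands of at least 2 kb. With narrow peaks in place of islands, NAV2 differed by 0.0122 and -0.0879 after knockdown and 0.0186 and 0.0225 in GSK-J4, NAV3 H3K27me3 in GSK-J4 by 0.0163, and NAV1 H3K4me1 by -0.591 after knockdown and by 0.0322 in GSK-J4, with the groups overlapping (exact permutation p = 1). Over the gene body alone NAV2 H3K27me3 differed by 0.921 in GSK-J4. At a −log10 q of at least 5, narrow peaks differed by 2.5 for NAV1 H3K4me1 after knockdown and, in GSK-J4, by -1 for NAV3 H3K27me3 and -0.5 for NAV3 H3K4me1. Of NAV2 regions, 8 H3K4me1 regions (7 lost, 1 gained) were apart after knockdown with equal covered length, and 0 of either mark in GSK-J4. With single libraries left out, NAV2 H3K4me1 differed after knockdown by -3.01 to -2.11 points (-3.01 without siCtrl replicate 2). NAV3 in GSK-J4 differed by -0.289 to 0.111 points for H3K27me3 (0.111 without DMSO replicate 2 or GSK-J4 replicate 1) and by -1 to 4 narrow H3K4me1 peaks (-1 without GSK-J4 replicate 2). Narrow peaks in GSK-J4 also differed by -1.5 to 8.5 for NAV2 H3K4me1 (-1.5 without GSK-J4 replicate 1) and by 3.5 to 23.5 for NAV1 H3K27me3 (3.5 without GSK-J4 replicate 1), and by 2.5 to 8.5 for NAV3 H3K27me3 (2.5 without GSK-J4 replicate 1). After knockdown they differed by 1.5 to 5.5 for NAV2 H3K27me3.

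Same-numbered libraries did not deviate together in island coverage (correlations -0.01, 0.07, -0.01 and -0.04), so they were not treated as pairs. The labels do not say whether they were handled together. A replicate block left each difference as it was, -11.3 points for NAV1 H3K4me1 after knockdown for instance, and its smallest exact p was 0.5. With 2 libraries a group no p could pass 0.05, and depth limits which weak islands are called.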
